A study of Mus musculus with 26 samples.

Results

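The Hox genes of the A, B, C and D clusters encode homeodomain transcription factors. The 37 members described here were all the genes with a symbol of Hoxa, Hoxb, Hoxc or Hoxd and a number that had a named probe, with antisense genes left out, out of 32481 genes on the array. They were 11 Hoxa, 10 Hoxb, 7 Hoxc and 9 Hoxd genes; Hoxc6 and Hoxc11 were not matched to a probe here. Each gene was read by 1 probe, the one with the highest mean signal.

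The cells were EML cells. This mouse blood progenitor line needs stem cell factor, can form erythroid, myeloid and lymphoid cells and, as known from its derivation, carries a dominant-negative retinoic acid receptor alpha. All groups grew in medium with 5% horse serum and 10% medium conditioned with stem cell factor. Total RNA of 8 groups was read on 26 arrays of 1 colour, which fell into 3 sets by slide. The first set held 3 arrays each of the sorted fractions Sca1hi, CR Sca1lo and EryCP. The second held 3 arrays of Ediff, the cells without CD34 and cKit taken after erythropoietin (Epo) had driven EryCP cells to differentiate, and 3 of a repeat measurement of EryCP, named EryCP repeat. The third held 4 arrays of CD34- CD103- cells, 4 of CD34+ CD103- cells and 3 of CD34- CD103- cells put through Epo-driven differentiation. The labels call all of them fractions of the EML line, but the titles of the third set carry the prefix EMLe2 in place of EML, which the sources used here do not explain. The sources used here state no Epo dose or time, and nothing says whether replicates came from separate cultures, so that p-values measure only the spread between these samples, which may be technical.

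Hox genes lie in their clusters in the order in which the embryo uses them along its axis, and the low-numbered genes at the 3′ end are classically the ones that respond to retinoic acid. Their proteins bind DNA with cofactors of the TALE class, the Pbx and Meis proteins, and Trithorax and Polycomb complexes keep the clusters open or silent. In blood, Hoxa and Hoxb genes are best known in stem and early progenitor cells: Hoxa9 with Meis1 sustains self-renewal, Hoxb4 expands stem cells when forced, and forced Hoxb8 holds myeloid progenitors in an immature state.

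A level is given as the log2 signal of the probe minus the 75th percentile of its array, so that 0 is the level of a well expressed probe and negative values lie below it. Levels of different probes were not compared. The 75th percentile of the signal was 648.8 to 1034 in the first set, 425.3 to 704.2 in the second and 757.9 to 1247 in the third. In the first set the 3 arrays on slide 2, Sca1hi replicate 3, CR Sca1lo replicate 3 and EryCP replicate 2, had 91.3% to 93.8% of probes well above background, against 80.2% to 86.9% on the other 6. The sorting genes followed the labels: Ly6a, which encodes Sca1, was 47.3-fold lower in CR Sca1lo than in Sca1hi (limma, adjusted p = 3.39e-06), and Cd34 was 26.3-fold lower in EryCP than in CR Sca1lo (adjusted p = 4.13e-05). In the third set Cd34 was 3.44-fold lower in CD34- CD103- than in CD34+ CD103- cells (limma, adjusted p = 3.16e-05). Its mean level was 5.05 in the former and 6.83 in the latter, so that Cd34 RNA stayed high in cells labelled CD34-. Itgae, which encodes CD103, was 2.89-fold higher in CD34- CD103- than in CD34+ CD103- cells (limma, adjusted p = 2.28e-05), although both fractions are labelled CD103-.

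Of the 37 Hox probes, 16 were well above background on all 26 arrays. These were Hoxa3, Hoxa4, Hoxa6, Hoxa7 and Hoxa13, Hoxb4, Hoxb5, Hoxb6, Hoxb7, Hoxb9 and Hoxb13, Hoxc4 and Hoxc5, and Hoxd3, Hoxd9 and Hoxd12. A further 12 were above background on every array of at least 1 group, 8 on scattered arrays, and Hoxc8 on none. By number within the cluster, 13 of the 21 members numbered 3 to 9 were above background on all arrays. So were 3 of the 11 numbered 10 to 13 and 0 of the 5 numbered 1 to 2. This split was chosen after the values were seen. Of all probes, 80.2% to 93.8% were well above background on an array of the first set, 76% to 82.3% in the second and 83.3% to 87.6% in the third. The number of Hox genes above background on every array of a group was 20 in Sca1hi, 23 in CR Sca1lo, 22 in EryCP, 20 in Ediff, 18 in EryCP repeat and 23 in each of the 3 groups of the third set. A laxer mark of the same scanner files, which asks only for a signal above local background, put 30 to 35 of the 37 there, so that many Hox signals lay between the 2 limits.

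**Figure D1:**
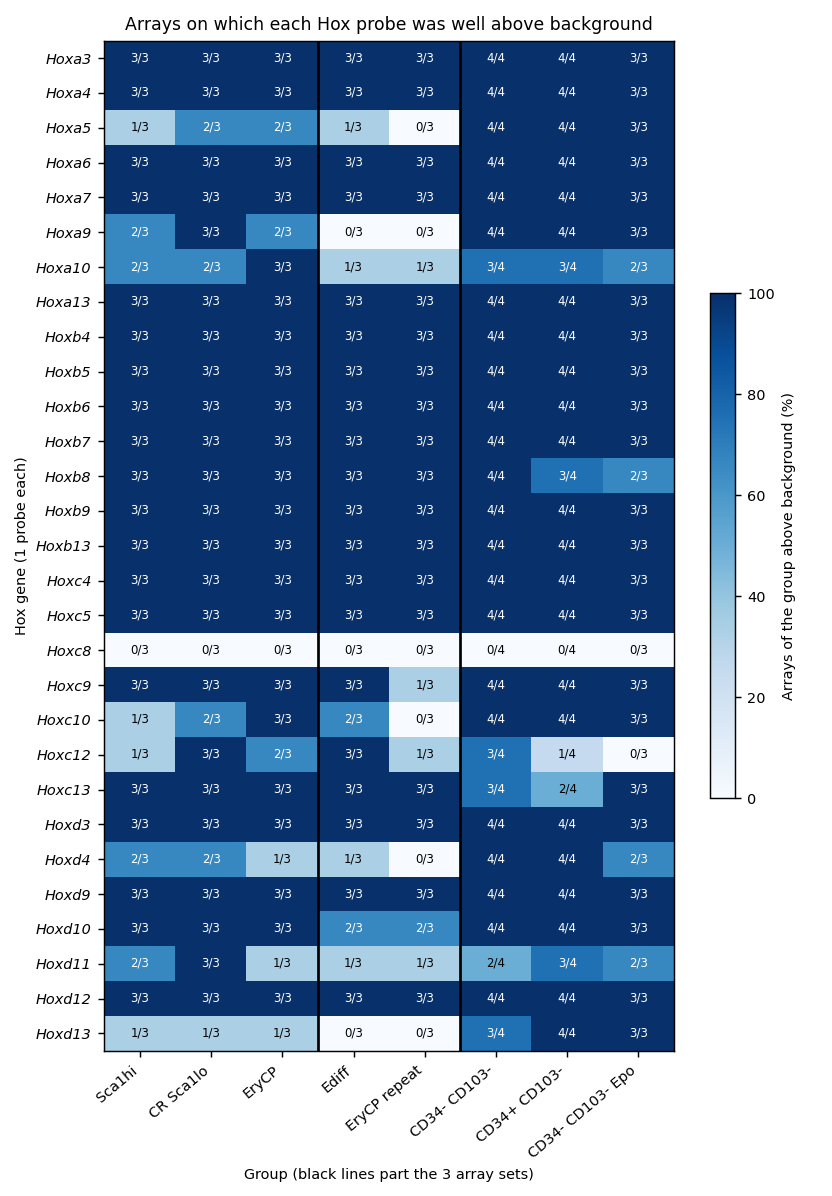
Each cell gives the number of arrays of a group (columns) on which the probe of a Hox gene (rows) was well above background, and its shade gives that number in percent of the group's arrays; the 8 genes detected on scattered arrays are not drawn. 16 genes are dark in all 8 groups, Hoxc8 is white in all, and Hoxa9 is at 0 of 3 in both groups of the second set only.

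Hoxa9 detection varied between the array sets. Its probe was above background on 2 of 3 Sca1hi, 3 of 3 CR Sca1lo and 2 of 3 EryCP arrays, on 0 of 3 Ediff and 0 of 3 EryCP repeat arrays, and on all 11 arrays of the third set. The level of Hoxa9 was -5.74, -5.73 and -4.53 in Sca1hi, -4.23, -5.96 and -4.60 in CR Sca1lo and -5.23, -4.64 and -6.37 in EryCP. In the third set Hoxa9 read -4.25, -4.94, -4.85 and -5.27 in CD34- CD103-, -4.51, -3.78, -5.09 and -4.58 in CD34+ CD103-, and -4.87, -3.91 and -4.33 after Epo. The groups of each set overlapped. EryCP and EryCP repeat lay on slides of different sets, where batch and group cannot be told apart, so the low Hoxa9 signal in the second set could not be assigned to the cells.

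The 12 probes above background on every array of some but not all groups included Hoxa5 and Hoxa10, both expressed in early blood progenitors. Hoxa5 was above background on 11 of 11 arrays of the third set and on 1 of 6 of the second, where it read -8.58 to -5.55. Hoxa10 was above background on every array of EryCP alone, and its levels of -4.53, -3.39 and -5.45 there overlapped those of Sca1hi (-5.59, -4.89 and -3.01) and CR Sca1lo (-4.21, -5.86 and -3.34). Hoxd13, a gene of the distal limb, was above background on 1 of 3 arrays in each group of the first set, on 0 of 6 in the second and on 10 of 11 in the third.

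The first set asks how Hox expression differs along the steps from Sca1hi to CR Sca1lo to EryCP. No Hox gene passed the test in any of its 3 comparisons. Of 37 members 25 passed the filter, which kept probes above background on all arrays of 1 or more groups in that set, and limma at a Benjamini-Hochberg adjusted p under 0.05 called 0 of 25 in CR Sca1lo against Sca1hi, where 3.63% of all genes tested were called, 0 of 25 in EryCP against CR Sca1lo (5.01% of all genes) and 0 of 25 in EryCP against Sca1hi (6.45%). None had an unadjusted p under 0.05 in these 3 comparisons. The median difference of the 25 was 0.02, -0.15 and -0.05, beside 0.03, -0.07 and -0.03 over all genes tested. With slide as a block, Hoxa3 was called lower in EryCP than in Sca1hi, by -0.35 (adjusted p = 0.0408), 1 of 25 Hox genes beside 20.9% of all genes called in that fit, and 0 of 25 were called in the other 2 comparisons, beside 17.9% and 20.2%.

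The largest difference of a tested gene in the first set was that of Hoxc10 between CR Sca1lo and Sca1hi, 0.94 ± 0.88 (SE, n = 3 against 3; limma, adjusted p = 0.982). Hoxc10 read -6.20, -5.55 and -4.55 in Sca1hi, -2.58, -6.28 and -4.63 in CR Sca1lo and -4.32, -4.36 and -5.66 in EryCP. One CR Sca1lo array, replicate 1, was high and the others overlapped the rest. Among tested genes Hoxd11 showed the largest difference between EryCP and Sca1hi, -0.73 ± 0.44 (limma, adjusted p = 0.639), from levels of -5.60, -5.10 and -6.25 in EryCP and -5.42 and -4.42 in Sca1hi, whose first spot was left out as an outlier of the scan.

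The spread between replicates was wide when slides were ignored and smaller within them. The standard error had a median of 0.41 over the 25 genes in each of the 3 comparisons. Without the block, the 95% interval of the difference lay within a 2-fold change either way for 6 of 25 genes in CR Sca1lo against Sca1hi, 7 in EryCP against CR Sca1lo and 6 in EryCP against Sca1hi. With slide as a block the median standard error was 0.15 and these counts were 21, 22 and 23 of 25. Hoxa4, for one, differed between CR Sca1lo and Sca1hi by -0.04, -0.07 and 0.03 within slides 1, 2 and 3. Hoxc4 had narrow limits: it read 0.36, 0.67 and 0.58 in Sca1hi, 0.48, 0.28 and 0.55 in CR Sca1lo and 0.44, 0.90 and 0.21 in EryCP, with a difference of -0.02 (95% interval -0.48 to 0.45) between EryCP and Sca1hi.

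Hox levels in the first set followed the slide. The array on slide 2 had the highest level of its group for 24 of the 25 tested Hox genes in Sca1hi, 17 in CR Sca1lo and 22 in EryCP, and for 16 genes in all 3 fractions at once; over all genes tested the last share was 40.3%. The mean of the 3 arrays of slide 2 lay above the mean of the set for 25 of 25 Hox genes, by a median of 0.52, and that of slide 1 below it for all 25, by a median of -0.52. Over all genes these medians were 0.17 and -0.15. Hoxb9, Hoxb7 and Hoxd12 show it: Hoxb9 read -0.09, 0.16 and 0.14 on the slide 2 arrays and -1.46 to -0.69 on the other 6.

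The ranges of the other Hox genes above background on all arrays are given over the 9 arrays of the first set. In cluster A, Hoxa3 lay between -2.33 and -1.53, Hoxa4 between -2.92 and -1.36, Hoxa6 between -2.03 and -1.07, Hoxa7 between -5.08 and -4.01 and Hoxa13 between -2.56 and -1.17. In cluster B, Hoxb4 lay between -2.85 and -1.72, Hoxb5 between -4.85 and -3.60, Hoxb6 between -3 and -1.72, Hoxb7 between -3.10 and -1.60 and Hoxb13 between -4.30 and -2.84. In clusters C and D, Hoxc5 lay between -4.09 and -2.78, Hoxd3 between -4.12 and -2.17 and Hoxd9 between -4.32 and -2.95. The fractions overlapped in each of these genes, and none of the 25 tested genes separated 2 fractions without overlap, although 18.7%, 18.1% and 19% of all genes tested did so in the 3 comparisons.

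The second set asks how Hox expression in Ediff, the product of Epo-driven differentiation, differs from that in EryCP. All 20 tested Hox genes read higher in Ediff, and limma called 12 of them higher and 0 lower. The 4 differences of 1 or more were those of Hoxb8, Hoxa4, Hoxb7 and Hoxc5, of which Hoxb7 did not pass the test. Most genes moved in this comparison, with 56.6% of all genes tested called and 39.6% called higher. The median Hox difference was 0.76, against 0.45 over all genes tested. With slide as a block it was 0.57 against 0.36. By cluster the calls were 4 of 5 Hoxa, 4 of 7 Hoxb, 4 of 5 Hoxc and 0 of 3 Hoxd genes. The median differences were 0.73, 0.82, 0.90 and 0.71, and the 3 Hoxd genes differed by 0.61 to 0.73. Hoxc9 and Hoxc12 passed the filter through Ediff alone, where they were high. The difference between clusters was not tested. In bulk samples fewer cells of a type and less RNA per cell cannot be told apart.

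Hoxb8 rose most. It read -3.11, -3.15 and -3.06 in Ediff and -4.98, -4.35 and -4.78 in EryCP repeat, a difference of 1.60 ± 0.17 (3.02-fold; n = 3 against 3; limma, adjusted p = 0.000622), and the 3 Ediff arrays lay above the 3 EryCP repeat arrays. Hoxa4, a paralogue of Hoxb4, read -1.97, -2.23 and -2.19 in Ediff and -3.72, -3.18 and -3.68 in EryCP repeat, 1.40 ± 0.18 higher (2.64-fold; adjusted p = 0.00119). Its second probe gave 1.30 (limma over probes, adjusted p = 0.00601). The second probe of Hoxb8 was above background on 0 of 3 arrays of either group and was not tested, with a difference of 0.97.

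Hoxc5 was 1.1 ± 0.16 higher (2.15-fold; limma, adjusted p = 0.00195), with levels of -3.14, -3.52 and -3.04 in Ediff and -4.46, -4.20 and -4.35 in EryCP repeat. Hoxb4 was 0.87 ± 0.13 higher (1.83-fold; adjusted p = 0.00214), with -3.02, -3.05 and -2.84 in Ediff and -4.02, -3.67 and -3.83 in EryCP repeat. Both groups stood apart for either gene.

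The other 8 calls were smaller than 2-fold: Hoxc9 (0.95), Hoxc12 (0.90), Hoxa13 (0.81), Hoxc13 (0.79), Hoxa6 (0.73), Hoxb13 (0.71), Hoxa3 (0.56) and Hoxb5 (0.47), with limma adjusted p from 0.00791 to 0.0492. Hoxb5, which marks long-term stem cells in mouse marrow, read -4.63, -5.05 and -4.86 in Ediff and -5.31, -5.26 and -5.38 in EryCP repeat. Ediff and EryCP repeat did not overlap for 10 of the 20 tested Hox genes. These were all among the 12 called genes, of which Hoxa6 and Hoxc13 overlapped. Higher without overlap were 43.7% of all genes tested. Hoxc9 and Hoxc12 were above background on 3 of 3 Ediff arrays and on 1 of 3 EryCP repeat arrays, so that their low side is near the background. Both entered the test only through Ediff, the group where they were high. Of the 18 members above background on every array of the set, 10 were called higher and 0 lower. Beside them 58.5% of all genes were called, 9577 of 22789 higher.

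Of the 8 tested members without a call, Hoxb7 had the largest standard error: it read -3.01, -4.96 and -2.63 in Ediff and -5.15, -3.60 and -5.74 in EryCP repeat, 1.30 ± 0.79 apart (limma, adjusted p = 0.195). Hoxb6 differed by 0.82, Hoxd12 by 0.73, Hoxd9 by 0.71, Hoxd3 by 0.61, Hoxb9 by 0.55, Hoxc4 by 0.51 and Hoxa7 by 0.41, with adjusted p of 0.0689 to 0.394. For Hoxb9 the second probe was called (0.92; limma over probes, adjusted p = 0.0229) and the main probe was not. Ediff replicate 2 was the lowest of the 3 Ediff arrays for Hoxb7, Hoxb6, Hoxb9 and Hoxc4.

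**Figure D2:**
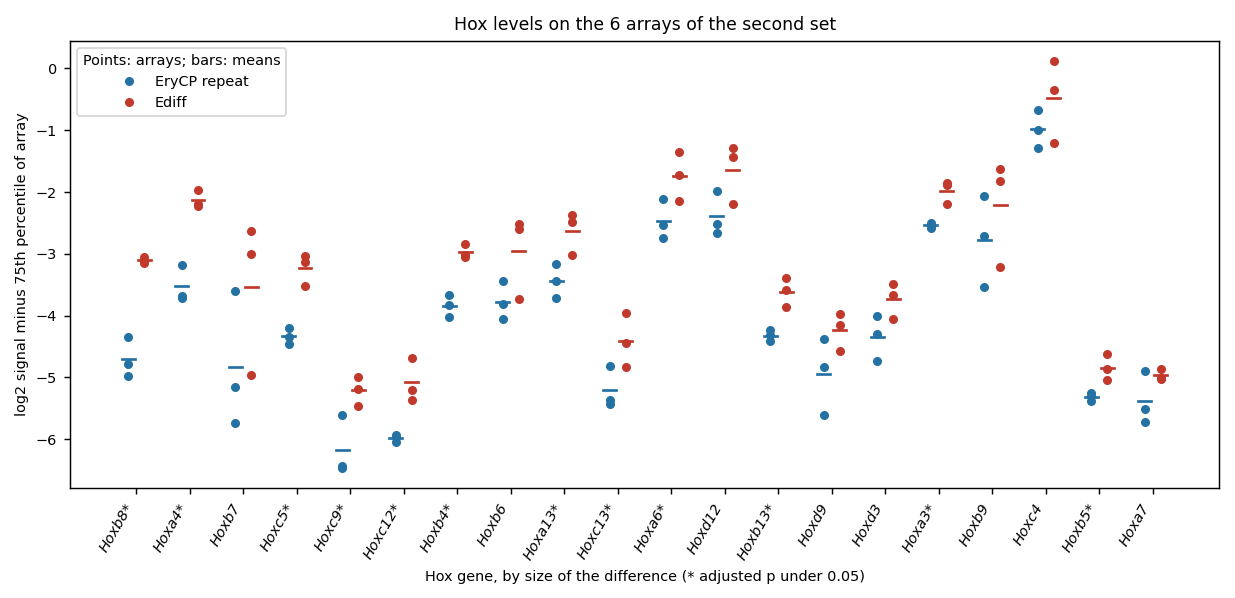
Levels (log2 signal minus the 75th percentile of the array, vertical axis) of the 20 tested Hox genes on each of the 3 Ediff (red) and 3 EryCP repeat (blue) arrays, with bars for means, ordered by the difference. Genes with a star passed the test, and Hoxb8 at the left shows 3 Ediff points close together above all EryCP repeat points, while Hoxb7 shows points of both groups mixed.

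The size and the direction of these differences depended on the scaling of the arrays. The 17 Hox genes that did not pass the filter, Hoxc8 among them, also read higher in Ediff, by 0.27 to 1.54 with a median of 0.66, and so did the negative control probes, by 0.53, and the spike-in probes, by 0.96. Scaled on the spike-ins, which were added in the same way to each RNA, the median of all genes was -0.51, that of the Hox genes -0.20, and 0 Hox genes were called higher and 1 lower, Hoxb5 (-0.49; limma, adjusted p = 0.0466). Beside these, 50% of all genes were called, 1016 of 24669 higher and 11307 lower. Of all genes called, 70.0% were higher under the percentile and 8.24% under the spike-ins. Under that scaling Hoxb8 stood at 0.63, Hoxa4 at 0.44, Hoxb7 at 0.34 and Hoxc5 at 0.14, and the other 16 tested Hox genes lay below 0.

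Under quantile normalization 7 of 20 were called higher (Hoxa3, Hoxa4, Hoxa13, Hoxb4, Hoxb8, Hoxc5 and Hoxc13), with a median of 0.49 against 0.19 over all genes, of which 51.9% were called, 7504 of 24669 higher. On the authors' value table Hox calls numbered 3 (Hoxa4, Hoxb8 and Hoxc5), with a median of 0.25 against 0.10 and 51.3% of all genes called, 7319 of 24669 higher. With a normexp background on the median signals 0 were, where 0.969% of all genes were called. Hoxa4, Hoxb8 and Hoxc5 were the members called higher under the percentile, the quantiles and the deposited table; under normexp and the spike-ins none of the 3 passed the test.

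**Figure D3:**
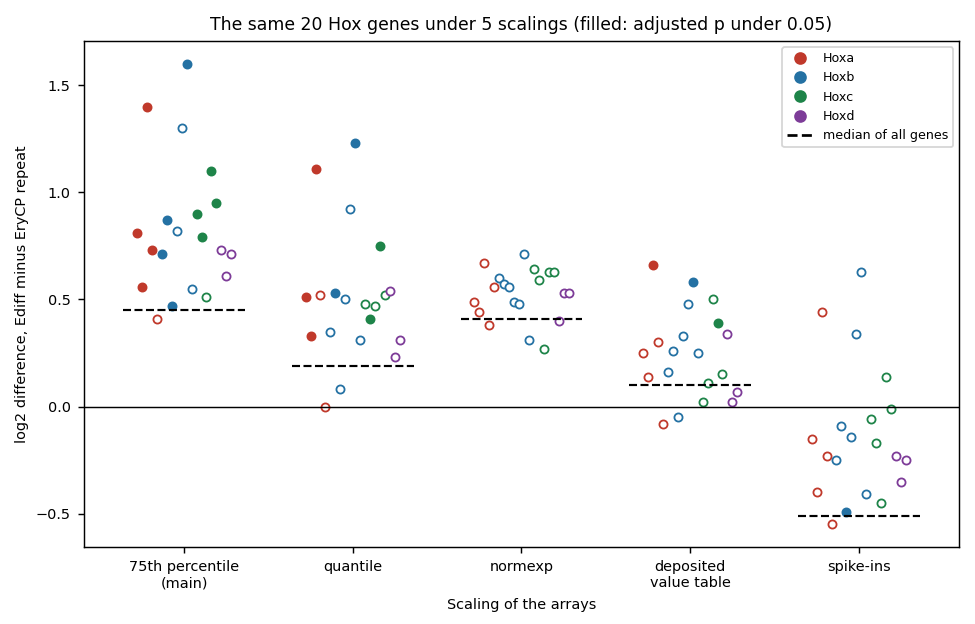
The log2 difference between Ediff and EryCP repeat (vertical axis) of the same 20 Hox genes, coloured by cluster, under 5 scalings (horizontal axis), filled where the adjusted p is under 0.05, with the median of all genes dashed. The genes sit above 0 under the percentile and mostly below 0 under the spike-ins, where the median of all genes is -0.51, and Hoxb8 is the highest under each except the deposited table, where Hoxa4 is.

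Both slides of the second set held both groups, but unevenly. Slide 1 held Ediff replicates 1 and 3 and EryCP repeat replicate 2, and slide 2 held the others. Differences that ignore slide therefore mix group with slide in part. Within slide 1, 19 of 20 tested Hox genes were higher in Ediff, with a median of 0.62, and within slide 2, 18 of 20, with a median of 0.56. Hoxb8 was higher by 1.27 and 1.73, Hoxa4 by 1.1 and 1.48, Hoxc5 by 1.11 and 0.88 and Hoxb4 by 0.74 and 0.87. With slide as a block 16 of 20 were called, all higher, beside 66.9% of all genes called, 12028 of 24669 higher. The difference of Hoxb7 was 0.63 in that fit and 1.3 without the block. Leaving out 1 array left 7 to 17 calls, and the share of all genes called moved with them. The count was 7 without Ediff replicate 3, EryCP repeat replicate 1 or EryCP repeat replicate 3. The shares of all genes there were 41.4%, 39.6% and 42.6%, with 6652, 6336 and 6845 of 24669 higher. The Hox count was 17 without Ediff replicate 2, beside 69.3% of all genes, 12551 of 24669 higher.

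Markers of other cells moved with this comparison. The summed level of 10 erythroid markers rose from 5.14 to 5.66 in EryCP repeat to 10.57 to 10.71 in Ediff, that of 9 mast cell and basophil markers went from 9.70 to 9.90 down to 3.56 to 3.91, and that of 8 stromal markers from 2.54 to 2.64 down to 1.66 to 1.93, although 3 of the 6 stromal genes tested were called higher and 1 lower and their median difference was 0.76. Twist1, a mesenchymal factor, was above background on no array of the second set. Of 7 lymphoid markers tested 4 were called higher and 2 lower (median 0.48), and of 5 megakaryocyte markers 1 higher and 4 lower (median -1.15). All 10 erythroid and 6 of 8 stromal markers were above background on every array of both groups. The part of these shifts in the Hox levels was not tested.

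The third set asks how Hox expression differs between CD34- CD103- and CD34+ CD103- cells, and how it changes when the former are put through Epo. No Hox gene passed either test. Limma called 0 of 25 in CD34- CD103- against CD34+ CD103-, where 12.4% of all genes tested were called, and none had an unadjusted p under 0.05. After Epo it called 0 of 25, with 2.54% of all genes called, and 2 Hox genes had an unadjusted p under 0.05. The median Hox difference was -0.06 in the first and 0.07 in the second, beside -0.06 and 0.08 over all genes. The summed erythroid markers were at 2.28 to 2.54 after Epo against 2.78 to 3.34 in CD34- CD103- cells. Of 10 erythroid markers 0 were called higher after Epo and 1 lower, Gata1, with a median difference of -0.55.

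Without a slide block these arrays were tighter than those of the first set, and the 95% interval lay within a 2-fold change either way for 17 of 25 Hox genes in either comparison. Hoxc4 read 0.10, 0.25, 0.10 and 0.34 in CD34- CD103-, 0.10, 0.17, 0.27 and 0.07 in CD34+ CD103- and -0.07, 0.01 and 0.05 after Epo. Its Epo arrays lay below all CD34- CD103- arrays, by -0.20 ± 0.09 (limma, adjusted p = 0.299). Lower without overlap were 7.41% of all genes tested. In CD34- CD103- against CD34+ CD103- the same held for Hoxc10 alone (-0.45 ± 0.25, adjusted p = 0.324), beside 9.65% of all genes. Hoxb13, a gene of the posterior body, read -3.01, -3.45, -3.27 and -3.50 in CD34- CD103-, -2.72, -2.61, -3.37 and -3.08 in CD34+ CD103-, and -3.10, -2.65 and -2.88 after Epo, with differences of -0.36 ± 0.18 (adjusted p = 0.264) and 0.43 ± 0.19 (adjusted p = 0.300) and overlapping groups; on the spike-ins the first was called (-0.56, adjusted p = 0.0214).

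Hoxd13, above background on 3 of 4, 4 of 4 and 3 of 3 arrays, showed the largest difference of the tested Hox genes between CD34- CD103- and CD34+ CD103- cells, 0.53 ± 0.36 (limma, adjusted p = 0.434). It read -4.53, -5.35, -6.53 and -5.10 in the former and -5.89, -5.98, -5.60 and -6.17 in the latter, and without CD34- CD103- replicate 3, the low one, it was called (0.92, adjusted p = 0.0377). Hoxb8 read -4.99, -5.43, -5.28 and -5.38 in CD34- CD103-, -5.07, -5.79, -5.15 and -6.69 in CD34+ CD103- and -5.03, -6.11 and -4.83 after Epo, and Hoxa4 -2.92, -3.39, -3.31 and -3.65, then -3.43, -2.81, -3.89 and -3.23, then -3.66, -2.96 and -3.02. The groups overlapped for both. Among the tested genes the largest difference after Epo was that of Hoxd4, -0.70, with 1 high array among the CD34- CD103- cells.

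**Figure D4:**
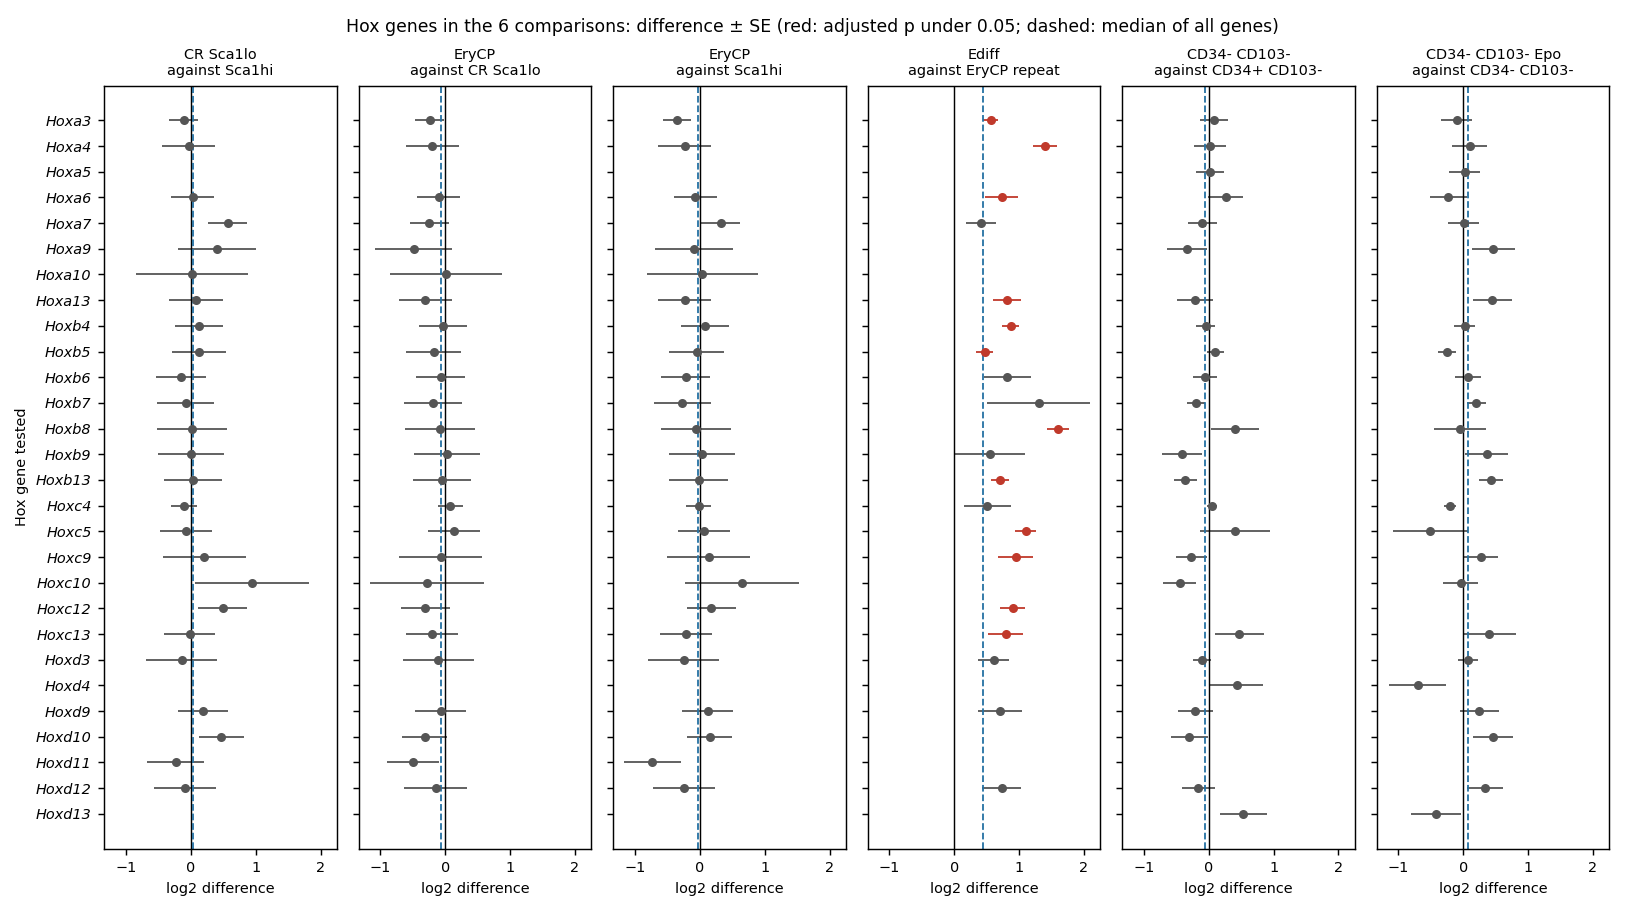
Log2 difference ± SE (horizontal axis) of each tested Hox gene (rows) in the 6 comparisons (panels), in red where the adjusted p is under 0.05, with the median of all genes tested as a dashed line. All 12 red points are in Ediff against EryCP repeat, where every point lies to the right of 0 and the dashed line stands at 0.45.

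Hoxc5 fell into separate levels in the third set by slide and not by group. It read -0.28, -0.38 and -0.32 on the 3 arrays of slide 3, which were CD34- CD103- replicates 2 and 4 and CD34+ CD103- replicate 3, and -2.30 to -1.70 on the other 8. Off slide 3 it averaged -2.20 in CD34- CD103- and -2.12 in CD34+ CD103- cells, and on it -0.33 and -0.32. The Epo group had no array on slide 3, and its Hoxc5 difference of -0.51 ± 0.58 (limma, adjusted p = 0.683) was 0.38 within slide 1 and 0.50 within slide 2. Hoxc5 was the only tested Hox gene at least 1 log2 unit higher on every array of slide 3 than on all others, by 1.32; 95 of 27350 genes tested were, and 0 were lower by as much.

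**Figure D5:**
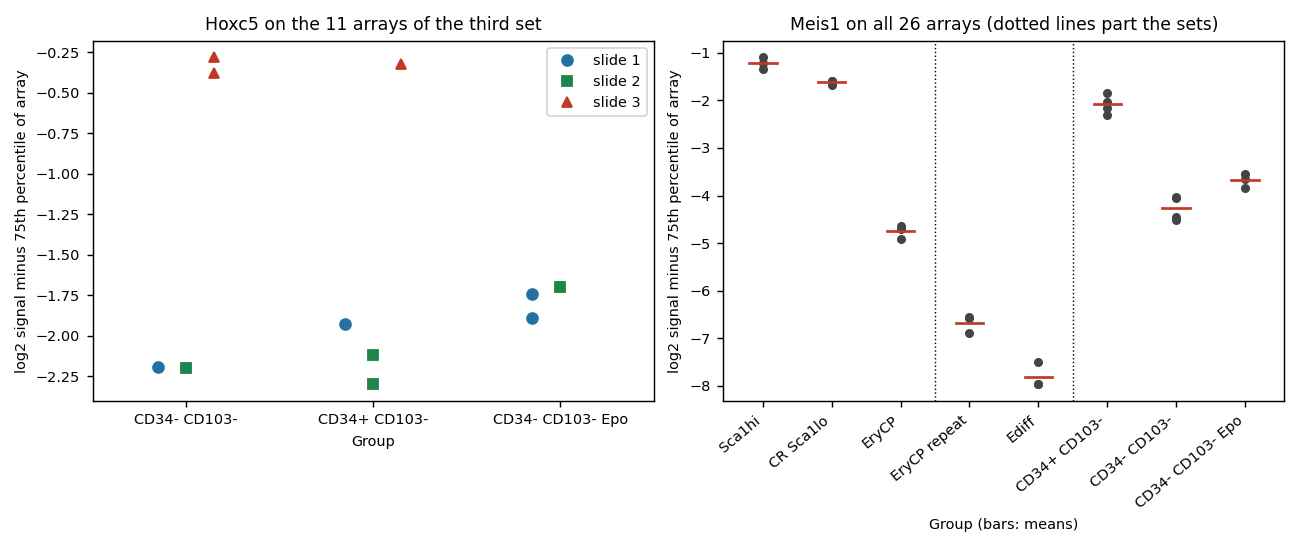
Left, levels (log2 signal minus the 75th percentile of the array) of Hoxc5 on the 11 arrays of the third set by group and slide; the 3 red triangles of slide 3 sit near -0.3 in both groups that have one. Right, levels of Meis1 on all 26 arrays with group means as bars, to be read within each set: it is lowest in EryCP in the first and in CD34- CD103- in the third, and was not above background on any array of the second.

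Whether Epo moved Hox genes differently in the 2 starting populations, which carry the prefixes EML and EMLe2, was tested as the difference of both responses in 1 fit of 13 arrays. Hoxa4, Hoxb4, Hoxb5 and Hoxb8 were called, 4 of 19 tested Hox genes, where 42.1% of all genes were called, 6387 of 24482 in the same direction. The response was larger in Ediff against EryCP repeat by 1.65 ± 0.38 for Hoxb8 (limma, adjusted p = 0.00477), 1.30 ± 0.31 for Hoxa4 (0.00539), 0.85 ± 0.19 for Hoxb4 (0.00361) and 0.72 ± 0.19 for Hoxb5 (0.0108). In CD34- CD103- cells, where 0 of 10 erythroid markers were called higher after Epo, their responses were -0.05, 0.10, 0.02 and -0.25. Hoxb8 was above background on 4 of 4 arrays there but on 2 of 3 after Epo, so that its response lay near the background. Hoxb8 was not tested when every array had to be above background. Hoxa3, Hoxa4, Hoxb4 and Hoxb5 were then called, 4 of 16, beside 43.2% of all genes. On the deposited table, under normexp and on the spike-ins 0 were called, beside 36.2%, 3.53% and 35.5% of all genes. The 4 calls hold for the percentile scaling, and 3 of them, without Hoxb5, for quantiles, beside 39.1% of all genes.

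The promoters of Hoxb8 and Hoxb4 are shown because among the genes called both in Ediff against EryCP repeat and in the difference of the Epo responses, these are the ones for which the RefSeq table of GRCm38.p6 gave a sequence. Each runs 5′ to 3′ on the plus strand from 250 bases before to 50 after the start. Capitals mark matches on either strand to 5 motifs, which were AGATAA for erythroid zinc finger factors, TATAAA for the core promoter, CCAAT for the factor NF-Y, TTTATG for Cdx proteins and TGATTNAT for Hox proteins paired with Pbx.
Hoxb8, chr11:96281655-96281954: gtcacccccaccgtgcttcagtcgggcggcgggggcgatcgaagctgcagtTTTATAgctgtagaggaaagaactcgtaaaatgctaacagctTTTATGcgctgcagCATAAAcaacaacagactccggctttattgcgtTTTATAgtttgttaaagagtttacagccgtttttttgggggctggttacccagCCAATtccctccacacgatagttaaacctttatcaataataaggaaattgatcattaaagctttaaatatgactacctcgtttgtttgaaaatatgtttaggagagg
Hoxb4, chr11:96318017-96318316: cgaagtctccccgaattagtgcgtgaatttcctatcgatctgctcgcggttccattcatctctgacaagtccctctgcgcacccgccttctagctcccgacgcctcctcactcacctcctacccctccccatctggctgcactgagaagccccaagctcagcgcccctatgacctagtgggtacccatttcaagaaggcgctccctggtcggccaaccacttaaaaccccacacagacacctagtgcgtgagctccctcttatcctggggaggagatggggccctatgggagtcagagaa

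Hoxb8 held 5 matches, at -199 and -110 (TATAAA on the other strand), -157 and -143 (TTTATG) and -57 (CCAAT), counted from the start, and none overlapped another. Hoxb4 held none of these letters in this window. Over the 24 promoters of 22 Hox genes in the table, CCAAT was present in 62.5% against 37.4% of all 32851 promoters, TTTATG in 20.8% against 11.9%, TATAAA in 16.7% against 13.6%, TGATTNAT in 8.33% against 3.22% and AGATAA in 0 of 24 against 11.2%. Hox promoters held a median of 14.5 CpG pairs against 7 over all promoters; Hoxb8 held 13 and Hoxb4 14. A match is a description of letters and not a binding site.

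Meis1, whose protein binds DNA together with Hox proteins, was lower in EryCP and in CD34- CD103- cells, where no Hox gene passed the test. Meis1 read -1.09, -1.34 and -1.21 in Sca1hi, -1.60, -1.59 and -1.68 in CR Sca1lo and -4.91, -4.70 and -4.63 in EryCP. It was 8.72-fold lower in EryCP than in CR Sca1lo (-3.12 ± 0.14; limma, adjusted p = 2.31e-05) and 11.6-fold lower than in Sca1hi (adjusted p = 8.86e-06), with EryCP below all other arrays; under normexp these were -2.26 (adjusted p = 0.112) and -2.56 (adjusted p = 0.0623).

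In the third set Meis1 read -4.51, -4.06, -4.45 and -4.04 in CD34- CD103- and -2.16, -2.30, -2.04 and -1.84 in CD34+ CD103- cells, 4.54-fold lower in the former (-2.18 ± 0.14; limma, adjusted p = 2.67e-06). After Epo it read -3.84, -3.66 and -3.55, 0.58 ± 0.15 above CD34- CD103- (adjusted p = 0.0788). It was above background on no array of the second set. The summed erythroid markers were at 3.81 to 4.07 in EryCP against 0.76 to 1.26 in CR Sca1lo, and at 2.78 to 3.34 in CD34- CD103- against 0.24 to 0.77 in CD34+ CD103- cells; their part in the Meis1 difference was not tested.

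Of the 11 TALE cofactor genes 10 were tested in the first and the third sets. In EryCP against CR Sca1lo 3 were called lower, Meis1 with the repressors Tgif1 and Tgif2 (-0.81 each; limma, adjusted p = 0.0497 and 0.0184), and in CD34- CD103- against CD34+ CD103- the same 3 were called lower. In EryCP against Sca1hi Meis1 was called lower and Pbx4 higher (2.11-fold; limma, adjusted p = 0.0235), and Tgif1 and Tgif2 differed by -0.08 and -0.16 (adjusted p = 1 and 0.997). In CR Sca1lo against Sca1hi and after Epo 0 of 10 were called. Over all genes 5.01% were called in EryCP against CR Sca1lo and 6.45% in EryCP against Sca1hi. In CD34- CD103- against CD34+ CD103- 12.4% were. In Ediff against EryCP repeat 1 of 9 was called higher and 4 lower, beside 56.6% of all genes called. Tgif1 was 7.85-fold, Pbx4 4.58-fold and Pbx3 2.22-fold lower there. Pbx3, the partner most tied to HOXA9 in leukaemia, was at -0.04 ± 0.08 (adjusted p = 0.798) between CD34- CD103- and CD34+ CD103- cells.

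Chromatin regulators of the clusters were called at most 3 at a time in a list outside the second set. Of the Trithorax and MLL genes 1 of 16 was called in EryCP against Sca1hi, Mllt3, and 1 higher and 1 lower in CD34- CD103- against CD34+ CD103-; of 12 Polycomb PRC2 genes 0 were called in the 5 comparisons of the first and the third sets, and of 19 PRC1 genes 3 were called lower, all in CD34- CD103- against CD34+ CD103-, where 12.4% of all genes were called. In Ediff against EryCP repeat, with 56.6% of all genes called, 8 of 16 Trithorax genes were called higher and 3 lower, 3 of 12 PRC2 genes higher and 3 lower, and 7 of 19 PRC1 genes higher and 7 lower. Cbx7, a chromodomain subunit of PRC1, was 3.57-fold higher in Ediff and Kdm2b and Rnf2, which bring PRC1 to CpG islands and modify histone H2A, were 2.46-fold and 2.28-fold lower (limma, adjusted p = 0.000373, 0.000382 and 0.000373).

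Of the Cdx, Evx and ParaHox genes, which include upstream activators of Hox clusters, 0 were called outside the second set. In Ediff Gsx1 was 3.34-fold higher (limma, adjusted p = 0.0115) and Evx2, which borders the Hoxd cluster, 1.60-fold (adjusted p = 0.00975). Cdx2 and Cdx4 were above background on no array of the second and the third sets. The list of 12 genes reported as Hoxa9 or Meis1 targets in blood holds sorting markers too: in EryCP against CR Sca1lo 5 of 11 tested were called lower, Cd34 and Sox4 (2.46-fold) among them, and 1 higher, Id2 (15.5-fold), an inhibitor of E proteins. In Ediff 8 of 11 were called lower, with Cd34 at least 78-fold and Erg at least 4.92-fold lower, since both were not well above background there. The 3 called higher included Pim1, a survival kinase, 22.6-fold higher. Over all genes 5.01% were called in EryCP against CR Sca1lo and 56.6% in Ediff against EryCP repeat, 4193 of 24669 lower. Erg did not keep its direction under normexp (0.15). Of 14 tested homeobox genes outside the clusters 2 were called higher and 7 lower in Ediff. In the other comparisons 0 to 2 were called in either direction, beside 2.54% to 12.4% of all genes called.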

How the data were processed

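Total RNA of 26 EML samples in 8 groups was read on Agilent 1-colour arrays. Per the file headers, the authors read the scans with Agilent Feature Extraction, 10.7.1.1 for the third set and 10.1.1.1 for the others. The deposited files give linear intensity per spot and marks of spots above background. The authors' deposited value table is in log2, with scale and centring unstated (array medians 7.08 to 7.29). Its columns tracked the scanner's median signal in sets 1 and 2 (lowest r 0.9946) and the processed signal in set 3 (lowest r 0.9998).

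Processed signals were set to log2 and centred on each array's 75th percentile over non-control probes, and outlying or uneven spots (48 to 446 per array) were left out. Probes were named by accession through a RefSeq table of GRCm38.p6, with 27071 of 41174 matched, since the files hold no gene names; Hoxc4 was named through the older array design only. A probe was tested when well above background on all arrays of 1 or more groups in its set. Groups of a set were fitted together over all genes with limma 3.58.1 in R 4.3.3 (lmFit, eBayes, 2-sided), with Benjamini-Hochberg adjustment over all genes and calls at 0.05. The steps were tested on simulated data. Correlations between replicate arrays ranged from 0.968 to 0.9932, with 0 identical pairs. The number of arrays, 3 or 4 per group, limits the precision.

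Alternatives were other scalings (normexp, quantile, spike-ins, the deposited table), other filters, slide as a block, other fits and leaving out each array. The planned normexp on mean signals was run on median signals, because the files used here hold no mean signal. Named genes were the members, with values on every array for those on which results turn and ranges for others, and genes of fixed lists called at 2-fold or more, at most 4 per list and comparison; a few others are named beside small counts. One item is not reported here by name. The members and lists were chosen with earlier results of these data known. Plots used matplotlib 3.10.9 and Python 3.11.15.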

Additional observations from a re-analysis of the deposited data

Results flagged for a closer look

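In CD34- CD103- cells 3 of the 74 groups of 4 arrays that were checked had 1 array far from the other 3 by Dixon's test, where chance alone marks about 1 in 20. Hoxa3 read -1.61 on replicate 1 and -2.30 to -2.26 on the others. Hoxb4 read -2.76 on replicate 1 and -3.25 to -3.17 on the others. Hoxd4 read -4.20 on replicate 2 and -6.24 to -5.95 on the others.

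The difference between the 2 Epo responses was called for Hoxa4 (1.30), Hoxb4 (0.85), Hoxb5 (0.72) and Hoxb8 (1.65), from limma with adjusted p of 0.00361 to 0.0108. These 4 depend on the scaling, and the responses come from array sets on different slides. Hoxb8 was above background on 2 of 3 arrays of CD34- CD103- cells after Epo. Only Ediff is labelled as cells without CD34 and cKit, so that Epo and the fraction taken cannot be told apart.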

How the results depend on the processing

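Of 152 recomputed counts of called or detected Hox genes, 129 stayed within 1.5 times the value reported. In Ediff against EryCP repeat, the 12 calls became 7 under quantile normalization, 6 with all 26 arrays in 1 fit and 3 on the deposited table. Beside them 51.9%, 51.2% and 51.3% of all genes were called, with 7504, 8430 and 7319 of 24669 higher. They became 1 on the spike-ins (lower) and 0 under normexp, beside 50% and 0.969% of all genes. With 1 array left out 7 to 17 were called, beside 39.6% to 69.3% of all genes, 6336 to 12551 of 24669 higher. On the spike-ins the difference turned to -0.40 for Hoxa3, -0.23 for Hoxa6, -0.15 for Hoxa13, -0.09 for Hoxb4, -0.49 for Hoxb5, -0.25 for Hoxb13, -0.01 for Hoxc9, -0.06 for Hoxc12 and -0.17 for Hoxc13; on the deposited table Hoxb5 turned to -0.05, and under normexp Erg turned to 0.15. The 4 calls of the difference of the Epo responses became 0 on the deposited table, under normexp and on the spike-ins (Hoxb5 at -0.04), beside 36.2%, 3.53% and 35.5% of all genes. They became 9 with slide as a block and 8 with no filter, beside 52.9% and 31.4% of all genes. Of all genes 8867 of 24482 and 6439 of 32481 were higher there. With 1 array left out 4 to 9 were called, beside 35.5% to 52.2% of all genes, and 9 without Ediff replicate 2. In EryCP against Sca1hi slide as a block gave 1 call, in CD34- CD103- against CD34+ CD103- the spike-ins gave 1 and leaving out 1 array 0 to 1, and in the other comparisons leaving out 1 array gave 0. The count of detected Hox genes under the laxer mark was 33 in Sca1hi, 34 in EryCP, 32 in Ediff, 30 in EryCP repeat and 35 in both CD34 fractions without Epo. The causes were not tested. The planned choice of the probe within a set was not run for the difference of the responses, which needs the same probe in both sets. No paired analysis was possible because the labels give no replicate numbers shared between groups; slides, which did hold several groups, were used as a block instead. Array number and signals near background limit what differences could be seen.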

Other observations

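Of the genes at the borders of the clusters 2, 1 and 3 of 20 were called in CR Sca1lo against Sca1hi, EryCP against CR Sca1lo and EryCP against Sca1hi, beside 3.63%, 5.01% and 6.45% of all genes. In CD34- CD103- against CD34+ CD103- and after Epo 4 and 1 of 21 were called, beside 12.4% and 2.54%. Nfe2, which encodes an erythroid transcription factor and lies beside the Hoxc cluster, was 2.75-fold higher in CR Sca1lo than in Sca1hi (limma, adjusted p = 0.00915). Skap2 and Snx10, which flank the Hoxa cluster, were 2.52-fold and 2.57-fold lower in EryCP than in Sca1hi (adjusted p = 0.017 and 0.0141). In Ediff against EryCP repeat 4 of 20 flanking genes were called higher and 8 lower, with Copz2, beside the Hoxb cluster, 13.8-fold, Snx10 12.1-fold and Tax1bp1 2.33-fold lower. Calls of flanking and Hox genes were not tested against each other.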
